A study of Homo sapiens with 6 samples.

Results

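The genes described here are 33 targets of the transcription factor NRF2 and enzymes that supply or use NADPH. They were chosen by name, with earlier results of these data known, and all 33 were found by symbol among the 56303 genes of the deposited count table. The count table comes from mRNA sequencing of T24 cells, an established human bladder cancer line. One group of 3 libraries is labelled siNC, a control small interfering RNA, and the other group of 3 libraries is labelled siFBXL6, directed at the F-box protein gene FBXL6. The study's methods give 48 h between transfection and RNA collection, and the only factor in the labels that differs between the groups is the small interfering RNA. FBXL6 counts did not pass the test between these groups (log2 fold change -0.13, adjusted p = 0.247), so the groups are called by their labels throughout. Over 13 alternatives the FBXL6 value ran from -0.20 (without siFBXL6 replicate 1, adjusted p = 0.112) to -0.092. The FBXL6 count is itself uncertain, because 31.7% of its exon bases are shared with a gene on the opposite strand and 5.3% with one on the same strand. The titles number the siFBXL6 libraries from 1 to 3, and the paper numbers its 2 small interfering RNAs against FBXL6 in the same form, as siFBXL6-1 and siFBXL6-2. The numbers were read as replicate numbers, and which of these RNAs each library received is not known. Total counts per library ran from 56814946 to 60967902 in siNC and from 60754015 to 60968158 in siFBXL6.

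NRF2, encoded by NFE2L2, is held at a low level by KEAP1, an adaptor that brings it to a ubiquitin ligase. Oxidants and electrophiles modify KEAP1, and NRF2 then enters the nucleus, pairs with small MAF proteins and binds antioxidant response elements in genes for glutathione, thioredoxin, quinone and NADPH metabolism. Mutations that keep NRF2 active are known in several cancers, bladder cancer among them.

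Of the 33 genes, 32 had enough counts to be tested, and 21 of them differed between the groups at an adjusted p under 0.05 and are called changed, or 65.6% of those tested, beside 40.2% of all 21298 genes tested. 8 were higher in siFBXL6, beside 20.5% of all genes, and 13 were lower, beside 19.8% of all genes. The counts given for single roles are to be read beside the same shares of all genes, and since the choice of genes was made with results known, the differences from those shares are a description. The median log2 fold change of the 32 genes (without siNC replicate 3, -0.030) was -0.082, beside -0.00705 for all genes tested, and the median absolute value was 0.18, beside 0.18 for all genes tested. Scaled counts (CPM, the counts of a gene over the scaled total of its library) of the 3 siNC and the 3 siFBXL6 libraries did not overlap for 21 of the 32 genes, where 48.2% of all genes tested showed no overlap. 19 genes were both called and without overlap. The share of all genes that met both conditions was not counted, and it cannot exceed the 40.2% called. NFE2L2 and HMOX1 were called although their groups overlapped, and KEAP1 and GCLC showed no overlap without passing the test. Of the 32 genes tested, 4 were called and changed by at least 1.5-fold (SQSTM1, PIR, AKR1C2 and AKR1B10), beside 7.42% of all genes tested. SQSTM1 and PIR, each at 1.51-fold, lay close to this limit. SQSTM1 fell under it with library size alone as the scaling (log2 fold change 0.57) and PIR without siFBXL6 replicate 2 (-0.56). By at least 2-fold 1 was called, AKR1B10, beside 2.92% of all genes tested, and without siFBXL6 replicate 1 its log2 fold change was -0.86 and it was not called (adjusted p = 0.121).

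**Figure D1:**
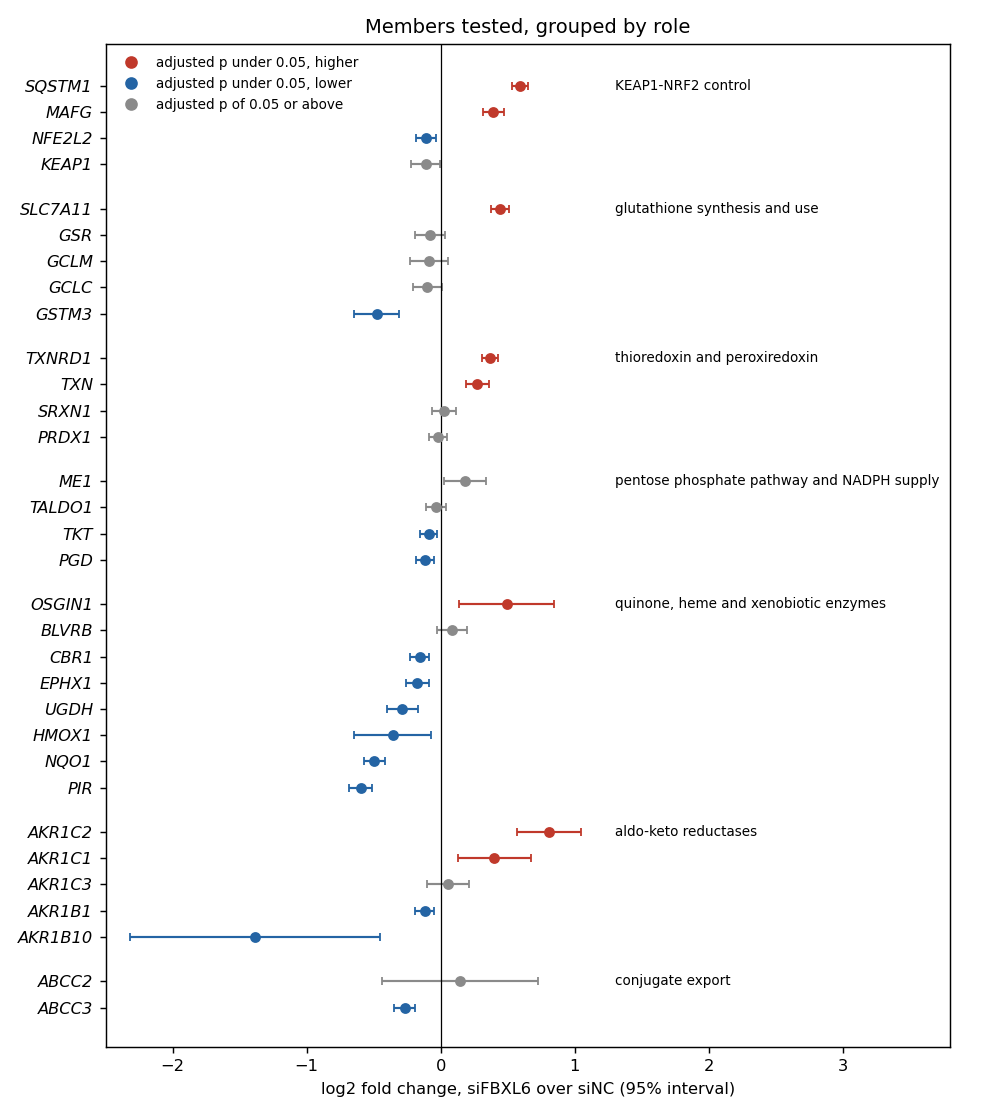
Log2 fold change of siFBXL6 over siNC (horizontal axis) for the 32 genes tested, grouped by role, with bars for the 95% interval and color for the outcome of the test. 8 genes are called higher and 13 lower, with values from -1.39 for AKR1B10, a low-count gene whose call rests on siFBXL6 replicate 1, to 0.81 for AKR1C2.

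**Figure D2:**
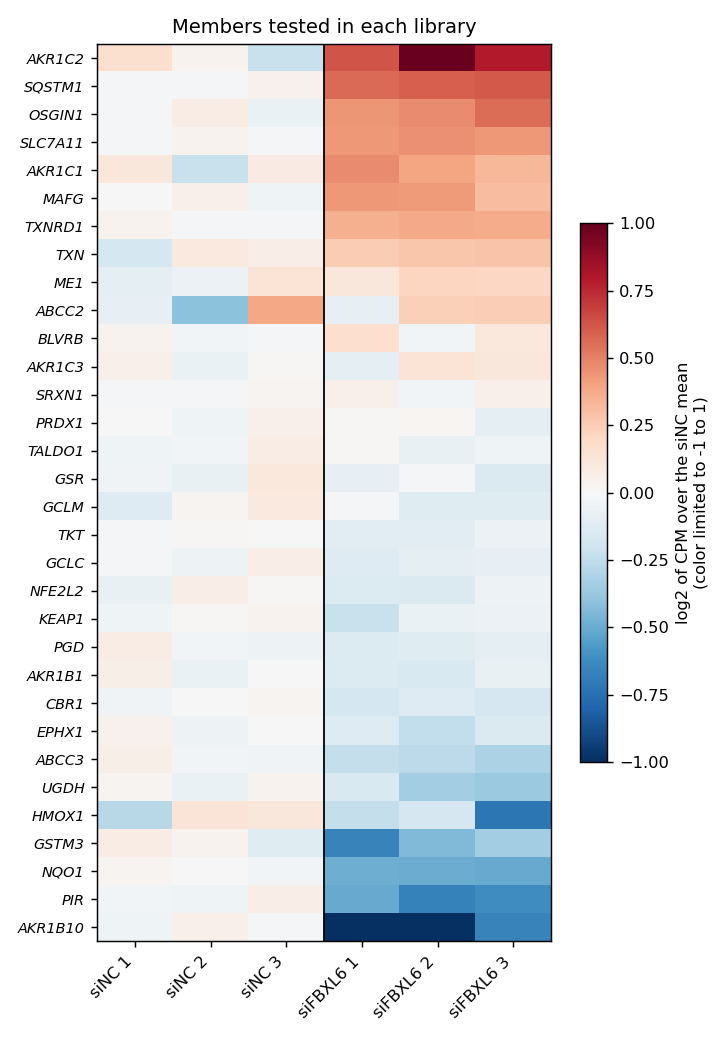
Log2 of the CPM over the siNC mean, in color, for the 32 genes tested (rows) in each of the 6 libraries (columns), with the color limited to the range from -1 to 1. SQSTM1, SLC7A11 and TXNRD1 are high in each of the 3 siFBXL6 libraries, and NQO1 and PIR are low in each of them.

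Per unit of length, as TPM, the counts over the gene length in the table scaled to the same total in each library, the most abundant of the 33 in siNC was TXN (thioredoxin) at 273 ± 27.1 TPM (SD, n = 3). PRDX1 (peroxiredoxin 1) followed at 226 ± 7.51, TXNRD1 (cytosolic thioredoxin reductase) at 166 ± 3.96 and PGD (6-phosphogluconate dehydrogenase) at 148 ± 7.14. The thioredoxin system held the highest 3 places in the order of levels. The SD ranges of TXNRD1 and PGD did not meet, while those of AKR1B1 (54.2 ± 2.56) and TALDO1 (56.4 ± 2.38) did. The SD covers libraries alone. The length used is that of all exons of a gene, which for TKT is 9507 bases, beside 2996 in its main transcript. The order between genes depends on this choice of length too. At the low end stood AKR1B10 at 0.698 ± 0.0214, GPX2 at 0.347 ± 0.0440 and ABCC2 at 0.260 ± 0.0727. The 33 levels summed to 1459, 1480 and 1501 TPM in the siNC libraries and to 1543, 1556 and 1541 in the siFBXL6 libraries. The rises of TXN and TXNRD1 added up to more than the rise of this sum, since their means went to 330.0 ± 4.53 and 214 ± 2.69. Some genes share exon bases with a gene on the opposite strand, 24.9% for PRDX1, 22% for SQSTM1, 18.9% for CBR1 and 17.7% for NQO1, and the strand setting of the counting is not given, although the paper's methods name a stranded library kit.

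**Figure D3:**
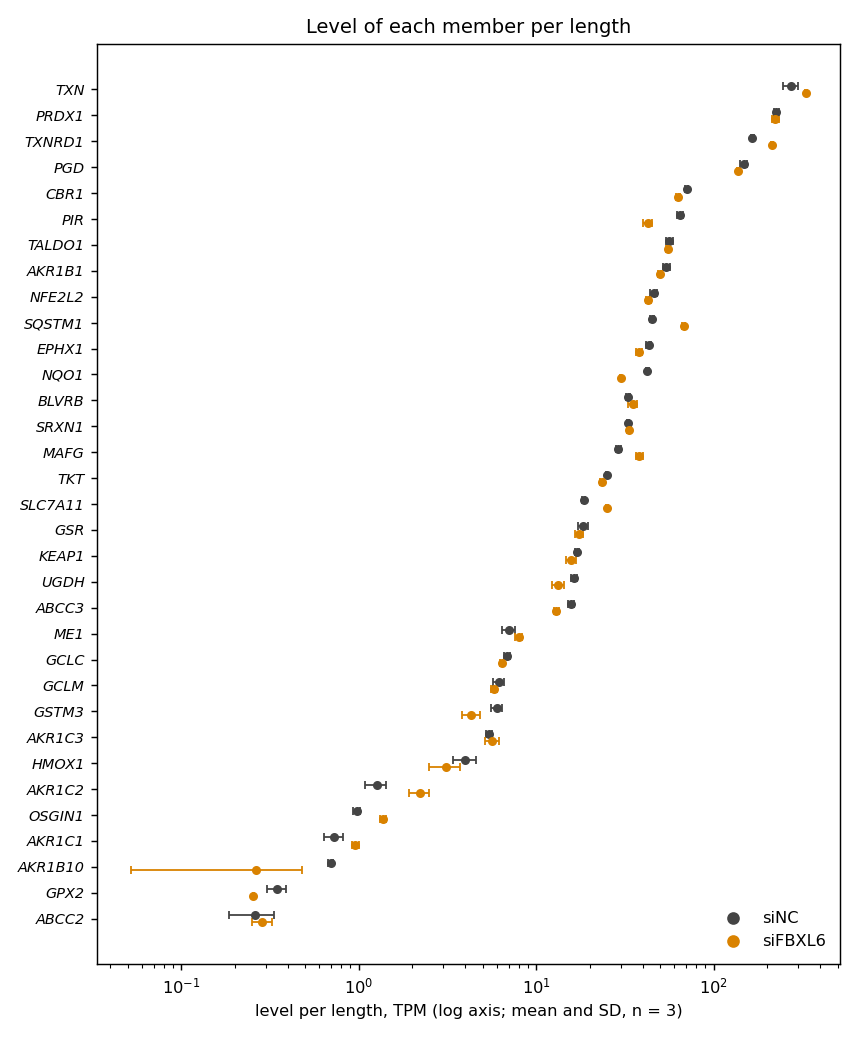
Level per length of each of the 33 genes (rows, ordered by the siNC mean) in TPM on a log axis, with points for the group mean and bars for the SD over 3 libraries. Levels in siNC run from 273 for TXN to 0.260 for ABCC2.

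Among the 4 genes that control the response, 2 rose and 1 fell, beside 20.5% and 19.8% of all genes tested. SQSTM1 (chr5:179806398-179838078, plus strand, GRCh38) encodes p62, an autophagy receptor that binds KEAP1. It was counted at 118, 118 and 123 CPM in the siNC libraries and at 177, 181 and 183 in the siFBXL6 libraries. All siFBXL6 values lay well above all siNC values, and SQSTM1 rose by 0.59 (SE 0.031, adjusted p = 3.98e-17) on the log2 scale. MAFG (chr17:81918270-81927714, minus strand) encodes a small MAF partner of NRF2. Its values were 52.4, 54.3 and 51.0 CPM in siNC and 71.2, 70.6 and 65.3 in siFBXL6. The groups were again apart, and MAFG rose by 0.39 (SE 0.037, adjusted p = 1.49e-10).

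NFE2L2 (chr2:177227595-177392697, minus strand), the gene of NRF2 itself, gave 90.6, 99.9 and 96.2 CPM in siNC and 87.0, 86.6 and 92.2 in siFBXL6. The highest siFBXL6 library lay above the lowest siNC library, so the groups overlapped. The log2 fold change was -0.11 (SE 0.035, adjusted p = 0.0115), or 1.08-fold lower. This call was lost without siNC replicate 2 (adjusted p = 0.125), siFBXL6 replicate 1 (0.0770) or siFBXL6 replicate 2 (0.0886), and the adjusted p ran from 1.46e-04 to 0.125 over 13 alternatives. Of the exon bases of NFE2L2, 17.6% also belong to another gene on the same strand in the table's annotation. KEAP1 (chr19:10486120-10503741, minus strand) gave 21.6, 22.3 and 22.7 CPM in siNC and 19.1, 21.2 and 21.3 in siFBXL6. Its siFBXL6 values were all below its siNC values by a narrow margin, and the test was not passed, with a log2 fold change of -0.11 (SE 0.053, adjusted p = 0.0848). KEAP1 was called lower with upper-quartile scaling (adjusted p = 0.0406) and with library size alone (0.0414), in a range of 0.0406 to 0.413 over 13 alternatives. Without siFBXL6 replicate 1 the KEAP1 value was -0.064 (adjusted p = 0.413).

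The glutathione genes gave 1 rise and 1 fall among 5 tested, or 40% called, beside 40.2% of all genes tested. SLC7A11 (chr4:138164097-138242349, minus strand) encodes the exchanger that brings cystine into the cell in return for glutamate. It was counted at 61.2, 63.4 and 60.99 CPM in siNC and at 83.5, 84.7 and 83.7 in siFBXL6. The libraries of each group lay close together and the groups far apart, and SLC7A11 rose by 0.44 (SE 0.032, adjusted p = 2.94e-13). GSTM3 (chr1:109733932-109741038, minus strand), a glutathione transferase, gave 10.4, 10.1 and 9.09 CPM in siNC and 6.22, 7.29 and 7.77 in siFBXL6. Every siFBXL6 library was below every siNC library, and the log2 fold change was -0.48 (SE 0.082, adjusted p = 1.35e-05). Neither subunit of the enzyme that joins glutamate to cysteine passed the test. The catalytic subunit GCLC had a log2 fold change of -0.10 (SE 0.052, adjusted p = 0.137) and the modifier subunit GCLM one of -0.085 (SE 0.069, adjusted p = 0.358), which was -0.037 without siNC replicate 3 and -0.15 without siNC replicate 1. GSR, which reduces glutathione disulfide with NADPH, stood at -0.078 (SE 0.055, adjusted p = 0.281), and at -0.024 without siNC replicate 3 and -0.11 without siNC replicate 2. GPX2, a glutathione peroxidase, had counts of 12, 10 and 10 in siNC and 8, 8 and 8 in siFBXL6 and was left out of the test for its low counts.

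In the thioredoxin group 2 of 4 genes rose, beside 20.5% of all genes tested called higher. TXNRD1 (chr12:104215779-104350305, plus strand), which reduces thioredoxin with NADPH, was counted at 394, 381 and 379 CPM in siNC and 491, 499 and 498 in siFBXL6. All 3 siFBXL6 libraries were far above the siNC libraries, and TXNRD1 rose by 0.37 (SE 0.028, adjusted p = 9.91e-13). TXN (chr9:110243811-110256640, minus strand), the substrate of TXNRD1, gave 95.4, 116 and 113 CPM in siNC and 129, 131 and 132 in siFBXL6. The siNC libraries were spread more widely, with replicate 1 lowest, yet none reached the siFBXL6 libraries, and TXN rose by 0.27 (SE 0.043, adjusted p = 2.83e-06). PRDX1, which breaks down peroxides at the expense of thioredoxin, had a log2 fold change of -0.018 (SE 0.034, adjusted p = 0.712) with a 95% interval from -0.087 to 0.050. SRXN1, which repairs overoxidized peroxiredoxins, had one of 0.025 (SE 0.043, adjusted p = 0.694). The SRXN1 value was 0.051 without siFBXL6 replicate 2, 0.011 without siFBXL6 replicate 3 and 0.0030 with library size alone. It is also uncertain because 85% of the SRXN1 exon bases are shared with another gene on the same strand.

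The members for the pentose phosphate pathway and NADPH supply gave 2 small falls among 4 tested, beside 19.8% of all genes tested called lower. PGD, which makes NADPH in the oxidative branch, had a log2 fold change of -0.12 (SE 0.033, adjusted p = 0.00389). TKT (transketolase), in the branch that interconverts sugars, had one of -0.091 (SE 0.032, adjusted p = 0.0211). Both were called lower, by 1.08-fold and 1.06-fold. The TKT call was lost without siNC replicate 2 (adjusted p = 0.0708), siFBXL6 replicate 1 (0.101) or siFBXL6 replicate 2 (0.0892), within 0.00439 to 0.101 over 13 alternatives. TALDO1 (transaldolase) had a log2 fold change of -0.034 (SE 0.037, adjusted p = 0.516) with a 95% interval from -0.11 to 0.042, and without siNC replicate 3 its sign turned (0.00266). ME1, the cytosolic malic enzyme that also makes NADPH, had one of 0.18 (SE 0.076, adjusted p = 0.0613). ME1 passed the test without siNC replicate 3 (adjusted p = 0.0158), within 0.0158 to 0.203 over 13 alternatives.

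Of the 8 enzymes for quinones, heme and xenobiotics, 6 were called lower and 1 higher, beside 19.8% of all genes tested called lower and 20.5% higher. HMOX1, 1 of the 6, lost its call in some alternatives. NQO1 (chr16:69706996-69726951, minus strand), the quinone reductase often read as a marker of NRF2 activity, was counted at 48.5, 47.7 and 46.8 CPM in siNC and 33.9, 33.8 and 33.6 in siFBXL6. The 3 siFBXL6 libraries were nearly alike and far below the siNC libraries, and NQO1 fell by 0.50 (SE 0.038, adjusted p = 9.83e-13) on the log2 scale, or 1.41-fold. PIR (chrX:15384799-15493564, minus strand) encodes pirin, an iron-binding nuclear protein. Its values were 55.0, 54.5 and 58.6 CPM in siNC and 39.6, 35.1 and 36.5 in siFBXL6. The groups did not overlap, and PIR fell by 0.60 (SE 0.042, adjusted p = 1.06e-13). UGDH, which makes UDP-glucuronic acid, fell by 0.29 (SE 0.056), EPHX1 (microsomal epoxide hydrolase) by 0.17 (SE 0.043) and CBR1 (carbonyl reductase) by 0.16 (SE 0.035), with adjusted p-values of 8.44e-05, 0.00130 and 4.47e-04. The CBR1 count is uncertain, because 28.6% of the 50-base stretches of its main transcript occur in a transcript of another gene. BLVRB, the biliverdin reductase that works with NADPH, had a log2 fold change of 0.083 (SE 0.055, adjusted p = 0.244). Its value was 0.040 without siFBXL6 replicate 1 and 0.14 without siFBXL6 replicate 2.

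HMOX1 (chr22:35380361-35394214, plus strand), heme oxygenase 1, had low counts of 160, 224 and 206 in siNC and 170, 178 and 121 in siFBXL6. The groups overlapped, because siNC replicate 1 lay below siFBXL6 replicates 1 and 2, and siFBXL6 replicate 3 was the lowest library. HMOX1 had a log2 fold change of -0.36 (SE 0.14, adjusted p = 0.0408). The call was lost in DESeq2 (adjusted p = 0.0839) and without siNC replicate 2 (0.175), siNC replicate 3 (0.136) or siFBXL6 replicate 3 (0.2998), within 0.00505 to 0.2998 over 13 alternatives. Without siFBXL6 replicate 3 the HMOX1 value was -0.20. OSGIN1 (chr16:83948282-83966332, plus strand), named for its induction by oxidative stress, had counts of 68, 76 and 64 in siNC and 96, 98 and 104 in siFBXL6. Each siFBXL6 library was above each siNC library, and OSGIN1 rose by 0.49 (SE 0.17, adjusted p = 0.0225). Without siNC replicate 3 or siFBXL6 replicate 3 its adjusted p was 0.0622 and 0.0738, within 0.0221 to 0.0738 over 13 alternatives.

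The aldo-keto reductases, which reduce aldehydes and ketones with NADPH, moved in both directions, with 2 of 5 called higher and 2 lower, beside 20.5% and 19.8% of all genes tested. AKR1C2 (chr10:4987400-5018031, minus strand) had counts of 185, 179 and 139 in siNC and 265, 338 and 295 in siFBXL6. Every siFBXL6 library lay above the siNC range, and AKR1C2 rose by 0.81 (SE 0.12, adjusted p = 8.85e-07), or 1.75-fold. AKR1C1 (chr10:4963253-4983283, plus strand) had counts of 140, 117 and 134 in siNC and 185, 175 and 167 in siFBXL6. The groups were apart, with siNC replicate 2 lowest, and AKR1C1 rose by 0.40 (SE 0.13, adjusted p = 0.0166). Without siNC replicate 2 or siFBXL6 replicate 1 its adjusted p was 0.106 and 0.0639, within 0.0107 to 0.106 over 13 alternatives. AKR1C3 had a log2 fold change of 0.056 (SE 0.077, adjusted p = 0.617). The AKR1C3 value was 0.13 without siFBXL6 replicate 1 and 0.013 without siFBXL6 replicate 2. These genes lie side by side and resemble each other: 47.3% of the 50-base stretches of the main AKR1C2 transcript occur in transcripts of other genes, 22.7% for AKR1C1 and 18.6% for AKR1C3. Their counts, and the split between them, are therefore uncertain.

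AKR1B10 (chr7:134527592-134541408, plus strand) had counts of only 24, 27 and 24 in siNC and 1, 12 and 16 in siFBXL6. The siFBXL6 libraries were all below siNC but far from each other, with replicate 1 at a single count. AKR1B10 had a log2 fold change of -1.39 (SE 0.46, adjusted p = 0.0143). Without siFBXL6 replicate 1 this value was -0.86 and the call was lost (adjusted p = 0.121, within 0.00405 to 0.121 over 12 alternatives). AKR1B10 was not tested in the remaining alternative, which asked for at least 10 counts in every library. AKR1B1, the aldose reductase of the polyol pathway, had a log2 fold change of -0.12 (SE 0.036, adjusted p = 0.00726). Its call was lost without siFBXL6 replicate 2 (adjusted p = 0.0566, within 0.00137 to 0.0566 over 13 alternatives). Of the 50-base stretches of AKR1B10, 17.2% occur in transcripts of other genes. Of the 2 pumps that export glutathione and glucuronide conjugates, ABCC3 had a log2 fold change of -0.27 (SE 0.039, adjusted p = 5.65e-07), and ABCC2, with 31, 26 and 42 counts in siNC and 32, 40 and 40 in siFBXL6, had one of 0.15 (SE 0.29, adjusted p = 0.731). The 95% interval of ABCC2, from -0.44 to 0.73, spans values of both signs. The ABCC2 value was 0.38 without siNC replicate 3 and -0.028 without siNC replicate 2.

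**Figure D4:**
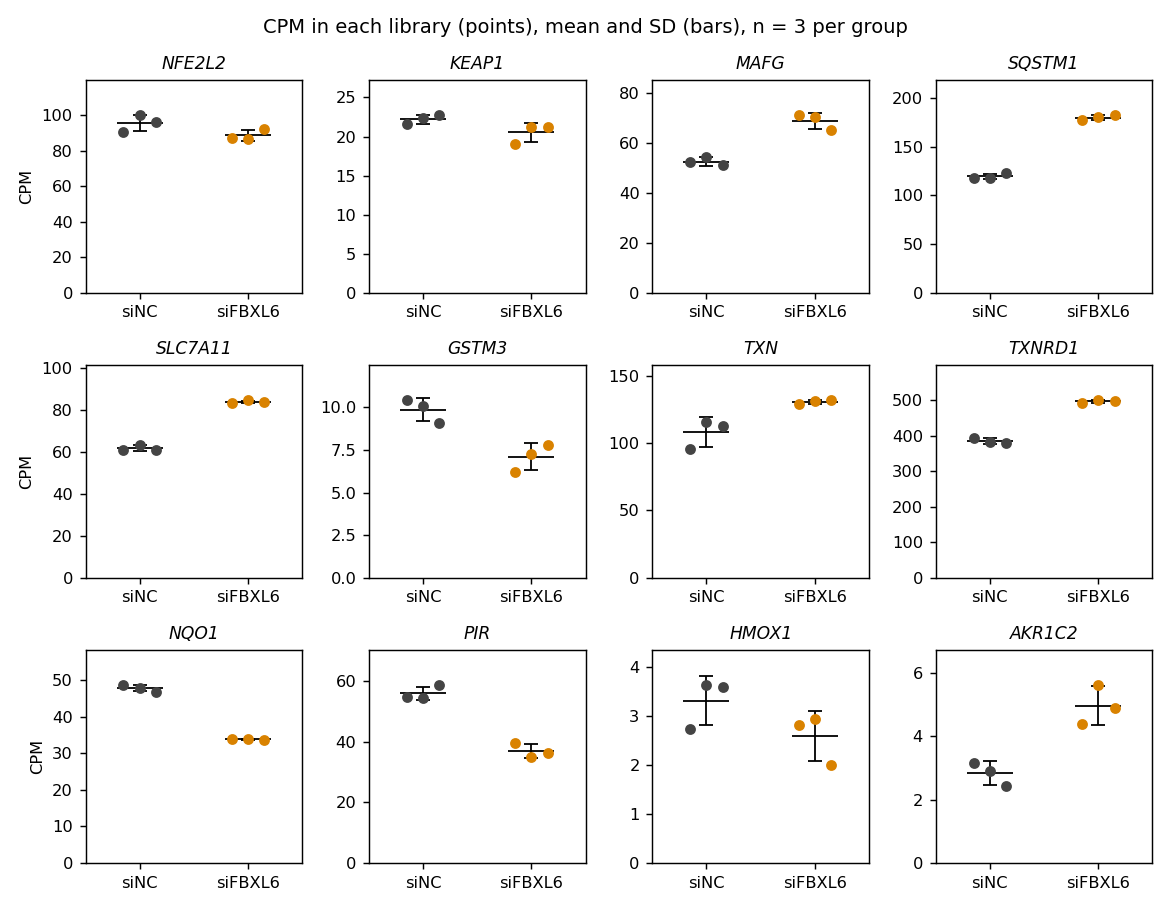
CPM (vertical axes, each starting at 0) of 12 genes in each library, with points for the 3 libraries of a group, a bar for the mean and whiskers for the SD. SQSTM1, SLC7A11 and TXNRD1 separate the groups upward and NQO1 and PIR downward, while the NFE2L2 and HMOX1 points overlap.

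The promoters were read for the core of the antioxidant response element, the letters that NRF2 is known to bind with its small MAF partners. RefSeq promoter windows, from 250 bases before to 50 bases after the start, were at hand for 27 of the 33 genes, all but SLC7A11, GSR, PRDX1, HMOX1, AKR1B10 and ABCC3. The core TGACNNNGC, on either strand, occurred in 9 of these 27 genes (33.3%) and in 4384 of all 27305 genes with such windows (16.1%). It was present in 1 of 7 called higher, 4 of 10 called lower and 4 of 10 others. Sequence outside these windows was not read, so a gene without a match here may have the core elsewhere. The AP-1 motif TGANTCA, which can overlap the core, occurred in 3 of the 27 (11.1%) and in 9.37% of all such genes. The matches overlapped in ME1 and PIR.

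The following stretches show the core in capitals with up to 10 bases on each side, written 5′ to 3′ on the strand of the gene. They were picked to set TXNRD1, which rose, beside PGD, EPHX1 and CBR1, which were called lower, and GCLM and ME1, which did not pass the test. Where the capitals begin with GC, the core lies on the opposite strand. TXNRD1 has windows at 2 starts, and 1 upstream match is given for each. KEAP1, which was not called, has 2 upstream matches and GPX2, which was not tested, has 1, and these are not printed. Matches that reach past a start, in TXNRD1, ME1 and PIR, are not printed either.
TXNRD1: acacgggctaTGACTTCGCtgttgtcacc
TXNRD1: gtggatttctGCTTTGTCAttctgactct
PGD: cctcgccgggGCAATGTCAtctaggtgct
EPHX1: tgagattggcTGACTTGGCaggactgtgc
CBR1: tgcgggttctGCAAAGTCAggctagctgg
GCLM: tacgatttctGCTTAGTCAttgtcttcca
ME1: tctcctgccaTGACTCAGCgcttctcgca
The TXNRD1 stretches lie at chr12:104215670-104215698, plus strand, GRCh38.p14, and at chr12:104286920-104286948. The PGD stretch lies at chr1:10398853-10398881, plus strand, GRCh38.p14, that of EPHX1 at chr1:225825266-225825294, plus strand, GRCh38.p14, and that of CBR1 at chr21:36069855-36069883, plus strand, GRCh38.p14. GCLM has it at chr1:93909446-93909474, minus strand, GRCh38.p14, and ME1 at chr6:83431170-83431198, minus strand, GRCh38.p14. All lie upstream of a start in the RefSeq annotation. TXNRD1 was the only gene called higher with a match in these windows.

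The 90 other genes of the pathway, in 5 lists, also moved in both directions. 87 had enough counts, 26 were called higher and 23 lower, or 56.3% of those tested, beside 40.2% of all genes tested called, 20.5% higher and 19.8% lower. The counts in each of the 5 lists are to be read beside the same shares of all genes. With upper-quartile or library-size scaling, 24 of the 87 were called higher and 27 lower. The genes named from each list are up to 3 with the highest and 3 with the lowest log2 fold change among those called and averaging 1 CPM or more. The median log2 fold change of the 87 was -0.00264. In the list of KEAP1 and NRF2 control, 7 of 14 were higher and 1 lower. The small MAF genes MAFK and MAFF rose by 0.67 (SE 0.049) and 0.64 (SE 0.039), like MAFG, with adjusted p-values of 3.25e-13 and 2.47e-15. The MAFK count is uncertain, because 18.1% of its exon bases are shared with a gene on the opposite strand. DPP3, a peptidase that binds KEAP1, rose by 0.64 (SE 0.052, adjusted p = 2.68e-12). PALB2, a BRCA2 partner that also binds KEAP1, had a log2 fold change of -0.22 (SE 0.055, adjusted p = 0.00159). SQSTM1 and DPP3 rose and PALB2 fell, but no list of genes of KEAP1-binding proteins was fixed or tested. NFE2L2, whose protein KEAP1 also binds, had a log2 fold change of -0.11. CUL3 of this list had one of -0.039 (adjusted p = 0.351) and was not called.

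Among 21 glutathione genes tested, 5 were higher and 3 lower. GSTO1, an omega-class transferase, rose by 0.53 (SE 0.049, adjusted p = 6.19e-11), GLRX (glutaredoxin) by 0.50 (SE 0.070, adjusted p = 3.76e-07) and GPX8, a peroxidase of the endoplasmic reticulum, by 0.43 (SE 0.045, adjusted p = 1.4e-09). GPX4, which reduces lipid peroxides in membranes, had a log2 fold change of -0.24 (SE 0.029, adjusted p = 2.45e-08). CHAC2, which degrades glutathione, and MGST1, a membrane-bound transferase, had log2 fold changes of -0.21 (SE 0.070) and -0.16 (SE 0.042), with adjusted p-values of 0.0150 and 0.00199. The CHAC2 call was lost without siNC replicate 1 (adjusted p = 0.0548), siNC replicate 3 (0.0974) or siFBXL6 replicate 1 (0.0509), within 0.00187 to 0.0974 over 13 alternatives.

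Of 17 thioredoxin, peroxiredoxin and superoxide genes, 4 were higher and 6 lower. SOD2, the mitochondrial superoxide dismutase, had the highest log2 fold change of the 87. It gave 240.5, 249 and 246 CPM in siNC and 477, 475 and 482 in siFBXL6. The siFBXL6 libraries were far above the siNC libraries, and SOD2 rose by 0.96 (SE 0.029, adjusted p = 8.02e-24). PRDX5, a peroxiredoxin of mitochondria and peroxisomes, rose by 0.29 (SE 0.034) and SESN2, a sestrin induced by stress, by 0.26 (SE 0.060), with adjusted p-values of 1.21e-08 and 5.51e-04. SESN1, another sestrin, had a log2 fold change of -0.40 (SE 0.086, adjusted p = 3.22e-04) and PRDX2, a cytosolic peroxiredoxin, one of -0.32 (SE 0.038, adjusted p = 2.16e-08). SESN3, also a sestrin and under 1 CPM on average, had counts of 68, 49 and 60 in siNC and 28, 32 and 40 in siFBXL6, and its log2 fold change of -0.85 (SE 0.25, adjusted p = 0.00599) was the lowest of this list. TXNRD3, a reductase related to TXNRD1, had a log2 fold change of -0.25 (SE 0.083, adjusted p = 0.0150). That call was lost without siNC replicate 3 (adjusted p = 0.124) or siFBXL6 replicate 1 (0.0793), within 0.00586 to 0.124 over 13 alternatives.

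In the list for the pentose phosphate pathway and NADPH supply, 13 of 16 genes were called, 6 higher and 7 lower, and here lay the lowest log2 fold change of the 87. IDH1, the cytosolic isocitrate dehydrogenase that makes NADPH, gave 46.2, 46.3 and 47.4 CPM in siNC and 15.5, 16.4 and 16.0 in siFBXL6. The groups were far apart with little spread in either, and IDH1 fell by 1.54 (SE 0.045, adjusted p = 3.14e-24) on the log2 scale, or 2.92-fold. ALDH1L1, a folate enzyme that also yields NADPH, fell by 0.63 (SE 0.090), and NADK2, which makes mitochondrial NADP, fell by 0.48 (SE 0.059), with adjusted p-values of 6.96e-07 and 2.46e-08. On the other side stood MTHFD2L, a mitochondrial folate enzyme, which rose by 0.61 (SE 0.080, adjusted p = 1.01e-07). RPE, an epimerase of the pentose phosphate pathway, rose by 0.54 (SE 0.044, adjusted p = 4.43e-12), and NNT, which makes mitochondrial NADPH from NADH, by 0.40 (SE 0.051, adjusted p = 5.55e-08). The RPE count is uncertain, with 23.8% of its exon bases shared with an opposite-strand gene. Enzymes of NADPH supply were called in both directions.

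Of 19 other NRF2-responsive genes tested, 4 were higher and 6 lower. CBR3, a relative of CBR1, rose by 0.27 (SE 0.080, adjusted p = 0.00685), SLC48A1, a heme transporter, by 0.25 (SE 0.075, adjusted p = 0.00783) and ABCC4, an export pump, by 0.17 (SE 0.049, adjusted p = 0.00489). The CBR3 count is uncertain, because 42.2% of its exon bases are shared with a gene on the opposite strand. The SLC48A1 call was lost without siNC replicate 1 (adjusted p = 0.0697, within 8.39e-04 to 0.0697 over 13 alternatives) and that of ABCC4 without siFBXL6 replicate 2 (adjusted p = 0.0521, within 0.00192 to 0.0521 over 13 alternatives). ABHD4, a lipid hydrolase, fell by 0.61 (SE 0.078, adjusted p = 7.68e-08) and TRIM16L, a relative of the ubiquitin ligase gene TRIM16, by 0.47 (SE 0.082, adjusted p = 1.59e-05). UGT1A6, a glucuronosyltransferase, fell by 0.46 (SE 0.060, adjusted p = 1.23e-07). Its count is uncertain, because 44% of its exon bases are shared with other genes on the same strand.

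**Figure D5:**
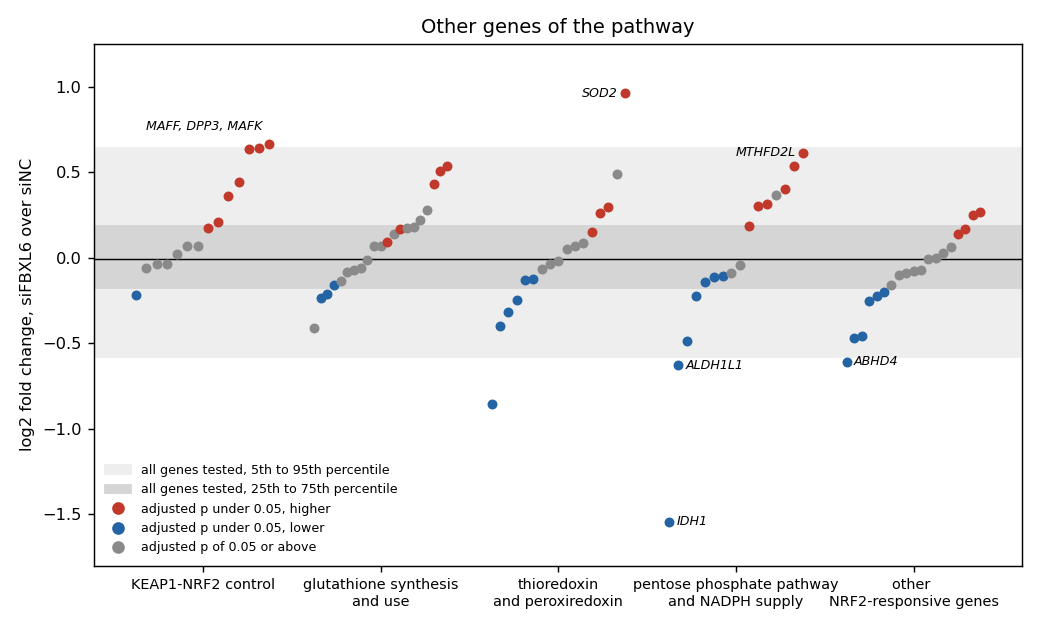
Log2 fold change of siFBXL6 over siNC (vertical axis) for the 87 other pathway genes tested, by list, colored by the outcome of the test, over bands for the 5th to 95th and 25th to 75th percentiles of all genes tested. SOD2 at 0.96 and IDH1 at -1.54 lie farthest from the wider band on either side, and the band runs from -0.58 to 0.64.

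ACTB, read as a control gene, had a log2 fold change of 1.95e-04 (SE 0.027, adjusted p = 0.996). Markers of cell types were also read. No reference values for T24 cells were at hand, so whether the libraries match that line was not tested. In the siNC mean, CDH1 stood at 55.3 TPM, KRT5 at 294, TP63 at 52.0 and KRT14 at 1.42. In each marker list the counts called are to be read beside 20.5% of all genes tested called higher and 19.8% called lower. The 6 epithelial markers summed to 2717, 2611 and 2699 TPM in siNC and 2460, 2472 and 2458 in siFBXL6, with KRT19 highest, and 1 was called higher and 4 lower. The 4 basal urothelial markers summed to 454, 442 and 449 in siNC and 436, 441 and 448 in siFBXL6, with KRT5 highest, 2 called higher and 1 lower. Of 8 luminal urothelial markers, 4 could be tested and 2 were lower, with sums of 73.0, 70.2 and 75.1 in siNC and 63.6, 66.2 and 64.9 in siFBXL6, and PPARG highest. UPK1A, UPK1B, UPK3A and KRT20 of that list, which mark differentiated urothelium, were at or near 0.

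Markers of other cells were low. The 4 fibroblast markers summed to 11.0, 11.4 and 10.8 TPM in siNC and 10.1, 10.2 and 9.73 in siFBXL6, with COL1A1 highest and 1 called lower. The 3 endothelial markers summed to 0.583, 0.541 and 0.546 in siNC and 0.816, 0.745 and 1.09 in siFBXL6, where VWF was the highest in the siNC mean (0.285 ± 0.0756, beside 0.213 ± 0.0464 for PECAM1) and PECAM1 in siFBXL6 (0.518 ± 0.135). PECAM1 was called higher. The 4 immune markers summed to 9.07, 8.91 and 9.09 in siNC and 25.9, 23.7 and 25.1 in siFBXL6. Nearly all of this came from CD68, a lysosomal protein gene, which rose by 1.49 (SE 0.066, adjusted p = 4.65e-19), while PTPRC, which marks leukocytes, stood at 0.175 ± 0.0569 and 0.114 ± 0.0339 and CD3E had a count of 0, 4 and 0 in siNC and 0, 0 and 0 in siFBXL6. All 6 libraries are labelled as T24 cells. In bulk libraries a change in the share of cells that express a gene and a change in its RNA per cell cannot be told apart.

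The labels do not say whether the 3 libraries of a group came from separate cultures, so the adjusted p-values measure the spread between these libraries, and an exact permutation test of 3 against 3 could not go below p = 0.1. Between 70.8% and 71.9% of genes with 1 to 20 counts in a library had an even count, and the notes do not say whether the mates of a pair were counted singly, so the fragments behind low counts, among them those of GPX2, AKR1B10, ABCC2, HMOX1, OSGIN1, AKR1C1 and SESN3, are unknown.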

How the data were processed

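The deposited table holds raw read counts per gene that the authors made with featureCounts (Subread 1.5.1) on GRCh38. The submitters' processing notes also name fastp 0.23.0 and STAR, while the paper's methods name other programs for trimming and alignment. The paper's methods name a stranded mRNA library kit. The strand setting of the counting, the annotation release and the handling of read mates were not given. Of the sample columns, 0 were left unused. The 6 libraries were tested in edgeR 4.0.16 (R 4.3.3) by the quasi-likelihood test, siFBXL6 against siNC with no other term, after filterByExpr (minimum count 10) and TMM scaling. Benjamini-Hochberg adjustment covered all 21298 genes tested, and a gene was called at an adjusted p under 0.05. CPM values are TMM-scaled, and the SE is the log2 fold change over the square root of F. TPM values were computed from counts and listed gene lengths. The steps were also run on simulated counts with known changes, all larger than most changes seen here. Smaller changes were not simulated. Alternatives were DESeq2 1.42.0, RLE, upper-quartile and library-size scaling, other count filters, a replicate block, an adjusted p under 0.01 and leaving out each library. Exon sharing was read from the table's coordinates, and shared 50-base stretches from GENCODE transcripts. Members, lists and named genes were chosen with earlier results of these data known.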

Additional observations from a re-analysis of the deposited data

How the results depend on the processing

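The number of members called was 21, and over the alternatives of tool, scaling, filter and left-out library it ran from 17 without siNC replicate 2 or siFBXL6 replicate 1 to 22 with upper-quartile or library-size scaling. It was 15 at an adjusted p under 0.01, a setting that applies to counts alone and is not among the 13 alternatives of single genes. The shares of all genes called under these settings are not given here. The counts therefore show how the member calls moved and not how they compare with all genes. With the replicate block, 21 members were called, 8 higher and 13 lower. The count over all 21298 genes tested was 8408 with the block, beside 8569 without it. The deviations of same-numbered libraries from their group means had correlations of -0.046, 0.012 and -0.0068 over 16193 genes, so the numbers were not treated as pairs. The median log2 fold change of the members tested was -0.082, and it was -0.10 with upper-quartile scaling, -0.10 with library size alone and between -0.085 and -0.030 with single libraries left out, the latter bound without siNC replicate 3. No scaling moved the median of all genes tested by more than 0.0218. Of 415 values for single members under those 13 alternatives, 396 kept the outcome of the test, 16 lost the call, 3 gained one and 0 changed sign with a call. The signs of PRDX1, TALDO1 and ABCC2, none of them called, turned in at least 1 alternative.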
